A study of Mus musculus with 2 samples.

Results

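Dense clusters of distal accessible regions in mouse granulocyte monocyte progenitors (GMP) are described here. They were chosen by position: accessible regions of the series-level conservative list with a summit over 1 kb from every protein-coding transcription start site (TSS) were chained to a neighbour where the gap was 12.5 kb or less, and chains of at least 8 regions were kept. Of 75148 regions in that list, 59578 were distal, and 8230 of these lay in 787 chains. That is 13.8% of distal regions, and the remaining 51348 are called other distal regions. The positions chose the members, so the number and the size of chains are a description, and no test was made of them.

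A distal region of open chromatin is DNA that nucleosomes leave free away from promoters, and many such regions are enhancers, to which transcription factors bind to raise the transcription of a gene that can lie far away. Dense runs of enhancers are known around genes that define a cell type. In myeloid progenitors the main factors at such sites are PU.1 (made by Spi1), the C/EBP family and RUNX1.

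The assay was ATAC-seq, in which the Tn5 transposase cuts accessible DNA and the cut fragments are sequenced. All samples form 1 group, GMP taken as primary cells from adult male C57BL/6J mice of 5 to 6 weeks, with 50000 cells of input and no treatment named in the labels. Both samples are biological replicates with separate biosamples and 1 donor label in common. No allele or transgene is named, the labels do not describe the sort, and they name sequencing instruments for replicate 1 only.

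The label was checked against the promoters in the list. A promoter region was present for 9 of 10 GMP markers, the exception being Prtn3, and for 0 of 4 T cell, 2 of 4 B cell (Ebf1 and Pax5), 2 of 4 erythroid (Epor and Gata1) and 0 of 3 hepatocyte markers. Over all protein-coding genes the share was 60.9%, so 2 of 4 is near what genes of any kind showed. Chain regions were nearest to 5 of the GMP markers (Cebpa, Csf1r, Elane, Prtn3 and Spi1) and to none of the markers of the other cell types. Over all protein-coding genes that share was 5.33%, so none among so few markers is near it. Values are fold enrichments, the authors' own figure for each region, and what they were divided by is not stated in the labels or the files. The files hold no read counts, so depth is unknown, and a region open in few cells cannot be told apart from one weakly open in many. A region absent from a replicate's list is one that did not pass that list's threshold.

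The summits of the largest chains are shown first, because the sequence at a summit was not used to choose the chains. Each line is 101 bp around 1 summit on the plus strand of GRCm38 (mm10), read 5′ to 3′, with capitals for every match to 1 of the 18 motifs searched on both strands. The region with the highest fold is given for each of the 8 chains with the most regions, named by the gene whose TSS is nearest to most of their summits, and 3 regions are given for the first of them.
Tomm20 chain, chr8:126908901-126909001: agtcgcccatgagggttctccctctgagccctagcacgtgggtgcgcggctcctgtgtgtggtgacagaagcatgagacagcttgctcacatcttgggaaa
Tomm20 chain, chr8:126763719-126763819: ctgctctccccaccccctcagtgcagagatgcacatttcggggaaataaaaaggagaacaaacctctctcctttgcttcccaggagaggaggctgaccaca
Tomm20 chain, chr8:126881929-126882029: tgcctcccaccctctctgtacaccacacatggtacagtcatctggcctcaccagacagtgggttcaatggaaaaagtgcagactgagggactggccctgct
Klf14 chain, chr6:31233447-31233547: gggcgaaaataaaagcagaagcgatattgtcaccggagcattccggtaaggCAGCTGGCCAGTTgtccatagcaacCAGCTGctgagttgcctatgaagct
Plac8 chain, chr5:100598024-100598124: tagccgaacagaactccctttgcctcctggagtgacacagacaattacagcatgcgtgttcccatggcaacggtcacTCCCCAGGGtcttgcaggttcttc
Zfp217 chain, chr2:170184673-170184773: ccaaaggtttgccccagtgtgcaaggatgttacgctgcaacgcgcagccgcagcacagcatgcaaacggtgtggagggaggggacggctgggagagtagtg
Zfp36l2 chain, chr17:84201323-84201423: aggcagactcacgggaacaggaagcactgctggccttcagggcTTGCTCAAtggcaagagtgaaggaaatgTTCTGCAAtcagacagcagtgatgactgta
Gm11084 chain, chr2:72970465-72970565: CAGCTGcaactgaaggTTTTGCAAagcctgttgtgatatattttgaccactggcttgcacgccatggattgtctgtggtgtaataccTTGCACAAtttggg
Lrrc8d chain, chr5:105662037-105662137: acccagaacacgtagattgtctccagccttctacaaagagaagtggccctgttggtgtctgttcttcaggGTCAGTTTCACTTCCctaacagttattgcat
Cmip chain, chr8:117224724-117224824: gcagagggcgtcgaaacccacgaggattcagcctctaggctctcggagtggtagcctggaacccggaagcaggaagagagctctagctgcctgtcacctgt

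The leading summits of these chains did not share 1 motif. The capitals mark E-boxes (CAGCTG) and a MYB site (AACTGNC) in the Klf14 chain, an EBF1 site (CCCNNGGGA) in the Plac8 chain, CEBP sites (TTGCNNAA) in the Zfp36l2 and Gm11084 chains, an E-box beside the CEBP sites of the Gm11084 chain, and a composite ETS-IRF site (GGAANTGAA) overlapping a MYB site in the Lrrc8d chain. No capitals stand in the windows of the Tomm20, Zfp217 and Cmip chains, which says only that none of the 18 sets of letters lies in those 101 bp.

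The windows that follow show how the letters of the main myeloid factors look where a large chain holds many of them. Of the 24 regions in the chain led by Zfp36l2, 5 had a PU.1 match (GAGGAAGT), as had 5 of the 9 in the chain led by Arfgef1, and no chain had more. Of the 24 in the chain led by Gm11084, 6 had a CEBP match, the most of any chain, and 1 of them is the exonic window already given. The Zfp36l2 and Gm11084 chains were picked for display after their values were seen, as were the windows of the region with the highest fold among those nearest to Irf8 and to Spi1. The windows chosen in the same way for Cebpa and S100a9 are not shown, and neither had a PU.1 or CEBP match. That of Cebpa had an AP-1 match (TGANTCA) and an E-box, and that of S100a9 had no match to any motif searched.
Zfp36l2 chain, PU.1, chr17:84108159-84108259: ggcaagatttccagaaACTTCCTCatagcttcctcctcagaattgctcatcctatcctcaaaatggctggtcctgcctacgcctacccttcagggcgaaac
Zfp36l2 chain, PU.1 and MYB, chr17:84118370-84118470: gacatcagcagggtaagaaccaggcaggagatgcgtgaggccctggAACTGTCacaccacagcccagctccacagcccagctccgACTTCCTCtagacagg
Zfp36l2 chain, PU.1, chr17:84177523-84177623: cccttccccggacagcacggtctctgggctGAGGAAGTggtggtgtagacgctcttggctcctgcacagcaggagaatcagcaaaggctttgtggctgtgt
Zfp36l2 chain, PU.1 and IRF, chr17:84181581-84181681: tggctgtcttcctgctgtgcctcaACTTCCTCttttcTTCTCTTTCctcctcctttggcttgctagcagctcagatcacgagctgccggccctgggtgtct
Zfp36l2 chain, PU.1, chr17:84194403-84194503: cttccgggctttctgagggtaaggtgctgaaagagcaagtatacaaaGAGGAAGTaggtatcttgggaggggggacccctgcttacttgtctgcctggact
Gm11084 chain, CEBP and IRF, chr2:72984314-72984414: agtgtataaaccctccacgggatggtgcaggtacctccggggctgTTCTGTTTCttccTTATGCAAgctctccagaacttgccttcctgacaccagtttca
Gm11084 chain, CEBP, chr2:73004498-73004598: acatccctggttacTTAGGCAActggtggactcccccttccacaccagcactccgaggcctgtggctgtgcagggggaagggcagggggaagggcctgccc
Gm11084 chain, CEBP and ETS-IRF, chr2:73040129-73040229: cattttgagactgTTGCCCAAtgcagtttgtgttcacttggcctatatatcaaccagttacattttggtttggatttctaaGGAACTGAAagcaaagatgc
Gm11084 chain, CEBP, chr2:73047108-73047208: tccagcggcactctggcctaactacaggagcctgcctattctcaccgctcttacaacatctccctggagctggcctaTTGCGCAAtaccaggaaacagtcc
Gm11084 chain, CEBP, chr2:73056243-73056343: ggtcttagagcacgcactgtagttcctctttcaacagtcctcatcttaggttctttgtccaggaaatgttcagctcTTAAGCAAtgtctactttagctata
Irf8 chain, CEBP, chr8:120792894-120792994: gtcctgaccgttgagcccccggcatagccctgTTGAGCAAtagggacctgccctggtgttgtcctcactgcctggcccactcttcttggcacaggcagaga
Spi1 chain, CEBP, chr2:91098310-91098410: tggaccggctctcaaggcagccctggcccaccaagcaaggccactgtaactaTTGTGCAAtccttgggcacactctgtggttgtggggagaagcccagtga

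The PU.1 matches of the Zfp36l2 chain sat at weak summits. Their folds in the series-level list were 3.54, 3.44, 3.55, 4.32 and 5.18 in the order shown, all below the chain's median of 5.50, and 1 of the 5 was in the lists of both replicates. The chain's strongest summit, at a fold of 12.5 (13.3 in replicate 1 and 10.3 in replicate 2), carried 2 CEBP matches and no PU.1 match. In the Gm11084 chain the CEBP summits shown ranged from 3.42 to 8.94, and the exonic window in Sp3 had the chain's highest fold, 15.4 (17.6 in replicate 1 and 11.9 in replicate 2).

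Chains were the far end of a steep size distribution. All distal regions formed 27527 groups under the 12.5 kb gap, of which 14688 were single regions (24.7% of distal regions) and 2.86% were chains of 8 or more. A chain held 9 regions at the median, 223 chains held exactly 8, 71 held 15 or more, and 21 held 20 or more. Just under the limit, 343 groups held 7 regions, with a median fold of 7.12 over their 2401 regions and a median span of 31.6 kb. The 223 chains of 8 had a median fold of 6.86 over 1784 regions and a median span of 36.1 kb.

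**Figure D1:**
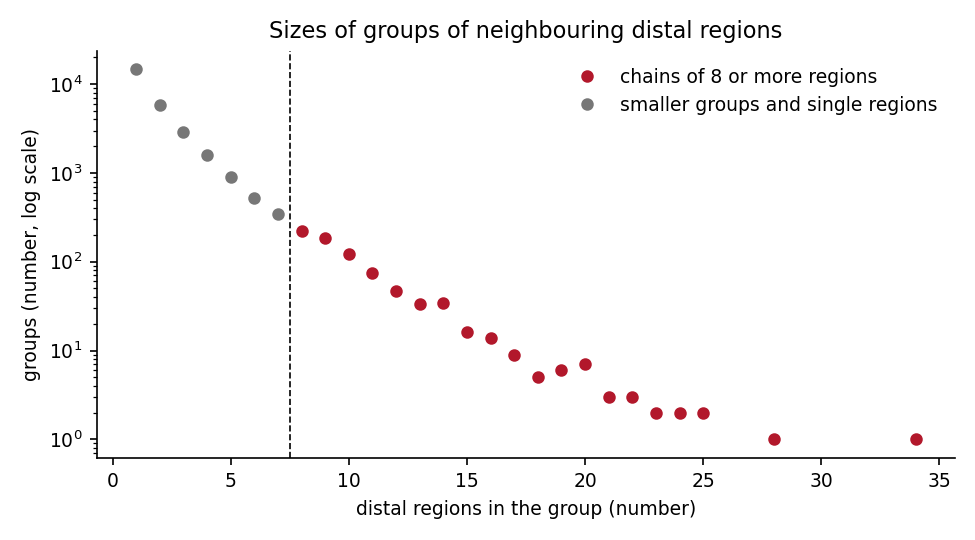
Number of groups of neighbouring distal regions (vertical axis, log scale) by the number of regions in the group (horizontal axis). Red points are the chains described here, grey points smaller groups and single regions, and the dashed line lies between 7 and 8 regions; the counts show no step at the line, and the largest chain holds 34 regions.

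Little of the DNA inside a chain was itself accessible. Chains spanned 45.3 kb at the median (13.9 to 174.6 kb) and 38.1 Mb in all, 1.40% of the chromosomes, and their regions covered 10.4% of that span, with a median gap of 4106 bp. In 391 chains (49.7%) no protein-coding TSS lay between the first and the last region, and 182 chains touched no protein-coding gene at all. In the other direction, 328 chains (41.7%) had accessible promoters inside their span, 509 regions in all, which the rule leaves out. For 426 chains every summit had the same nearest gene. The nearest TSS is a way to name a chain and not a measured target.

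The 25 chains with the most regions lay beside transcription factor genes, genes of RNA decay, signalling and adhesion, and several housekeeping or poorly described genes. Transcription factors and cofactors led 6 of them: Klf14, Zfp217, Etv6 (an ETS repressor needed by blood stem cells), Klf13, Bach1 (a haem-sensing repressor) and Zmiz1 (a coactivator). The chain led by the predicted gene Gm11084 also crosses Sp3, another transcription factor gene. Others were led by Zfp36l2 (an RNA-binding protein that destabilises mRNA), Selplg (the selectin ligand of leukocytes, PSGL-1), Sla (an adaptor that damps receptor signalling), Map3k8 (a kinase of the inflammatory ERK pathway), Anxa3 (an annexin abundant in neutrophils), Tgfbi and Thbs1 (secreted matrix proteins). Plac8, Lrrc8d (an anion channel subunit), Cmip, Dnajb12, Pip4k2a (a lipid kinase), Lrrfip1, B3gnt2 (a glycosyltransferase), Mbp, Timm8a2, Haao and Tomm20 (a mitochondrial import receptor) led the rest. The lead gene's own promoter was open for 22 of the 25, the exceptions being Klf14, Gm11084 and Timm8a2. That is near the 86.7% of all lead genes, beside 60.9% of all protein-coding genes. Of the 6 chains with 19 regions, the 4 with the shortest spans are among the 25, and those of Rubcnl and Tbc1d22a, of the same size, are not.

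**Figure D2:**
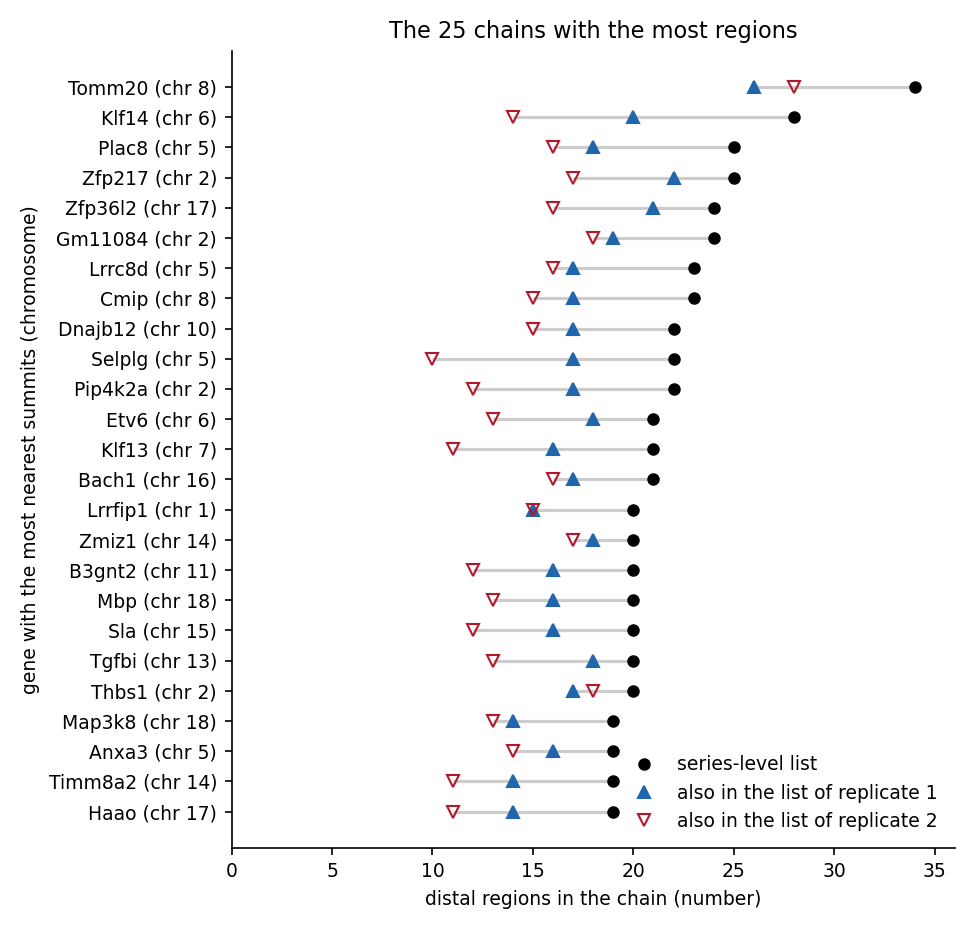
Number of distal regions in each of the 25 chains with the most regions, named by the gene nearest to most of their summits. Black circles are the series-level list, filled blue triangles the regions also in the list of replicate 1, open red triangles those also in the list of replicate 2; the Tomm20 and Thbs1 chains are the ones where replicate 2 holds more than replicate 1.

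The largest chain held 34 regions over 174.6 kb at chr8:126755662-126930281, in the interval between Irf2bp2 (a corepressor of IRF2) and Tomm20. No protein-coding gene lies in it, and it crosses the long noncoding RNA genes Gm45805, Gm31718 and A630001O12Rik. Tomm20 was the nearest gene for 31 summits and Irf2bp2 for 3. Fold ran from 2.46 to 12.7 with a median of 6.75. Replicate 1 held 26 of the regions at a median fold of 7.44 and replicate 2 held 28 at 6.64, and all 26 were among the 28.

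High folds lay toward both ends of that chain. The summit 8.11 kb from its start had a fold of 12.1 (13.1 in replicate 1 and 9.76 in replicate 2), and the one at 153 kb had 12.7 (13.1 in replicate 1 and 11.0 in replicate 2). Between 90.2 and 102 kb from the start, 7 summits had folds of 2.46 to 6.18. The 6 regions in neither replicate's list had folds of 2.46 to 5.87.

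The second chain, with 28 regions over 132.5 kb at chr6:31108030-31240513, lay between Klf14 (17 summits) and Mkln1 (11 summits) and crosses Lncpint, a long noncoding RNA gene. Its strongest summit, shown above, had a fold of 16.3 (15.9 in replicate 1 and 14.3 in replicate 2), while its median was 6.05. Replicate 1 held 20 of the 28 regions and replicate 2 held 14. A summit at a fold of 12.8 in the series-level list and 12.7 in replicate 1 was not in the list of replicate 2.

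The next chains, those of Plac8 and Zfp217, held 25 regions each. That of Plac8 ran across Plac8 and Coq2, with 3 promoter regions inside its span and a median fold of 5.28, and 18 regions were in replicate 1 and 16 in replicate 2. That of Zfp217 had a median of 6.17, with 22 regions in replicate 1 and 17 in replicate 2, and Zfp217 was the nearest gene for all 25. Among the 25 chains the Thbs1 chain stood highest, with a median fold of 9.95 (11.1 in replicate 1 and 8.45 in replicate 2), and the Mbp chain lowest, with 5.22 (5.35 in replicate 1 and 4.71 in replicate 2).

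The Thbs1 and Etv6 chains show how differently chains of like size can look. Thbs1 encodes thrombospondin-1, a secreted glycoprotein of platelets and monocytes, and its 20 regions lay from -199 to -85.9 kb of its 5′ end (minus signs stand for upstream), at chr2:117912807-118026380, where no protein-coding gene lies. The 3 strongest had folds of 19.2, 18.7 and 18.3, with 18.8, 19.0 and 19.2 in replicate 1 and 16.0, 15.6 and 14.9 in replicate 2. The 21 regions of the Etv6 chain all lay inside Etv6 over 79.0 kb, at chr6:134094667-134173695, and the strongest had a fold of 7.83 (7.63 in replicate 1 and 7.69 in replicate 2). Etv6 led another chain of 9 regions nearer to its start, at chr6:134041297-134079902, and 30 of its 44 distal regions were in chains.

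**Figure D3:**
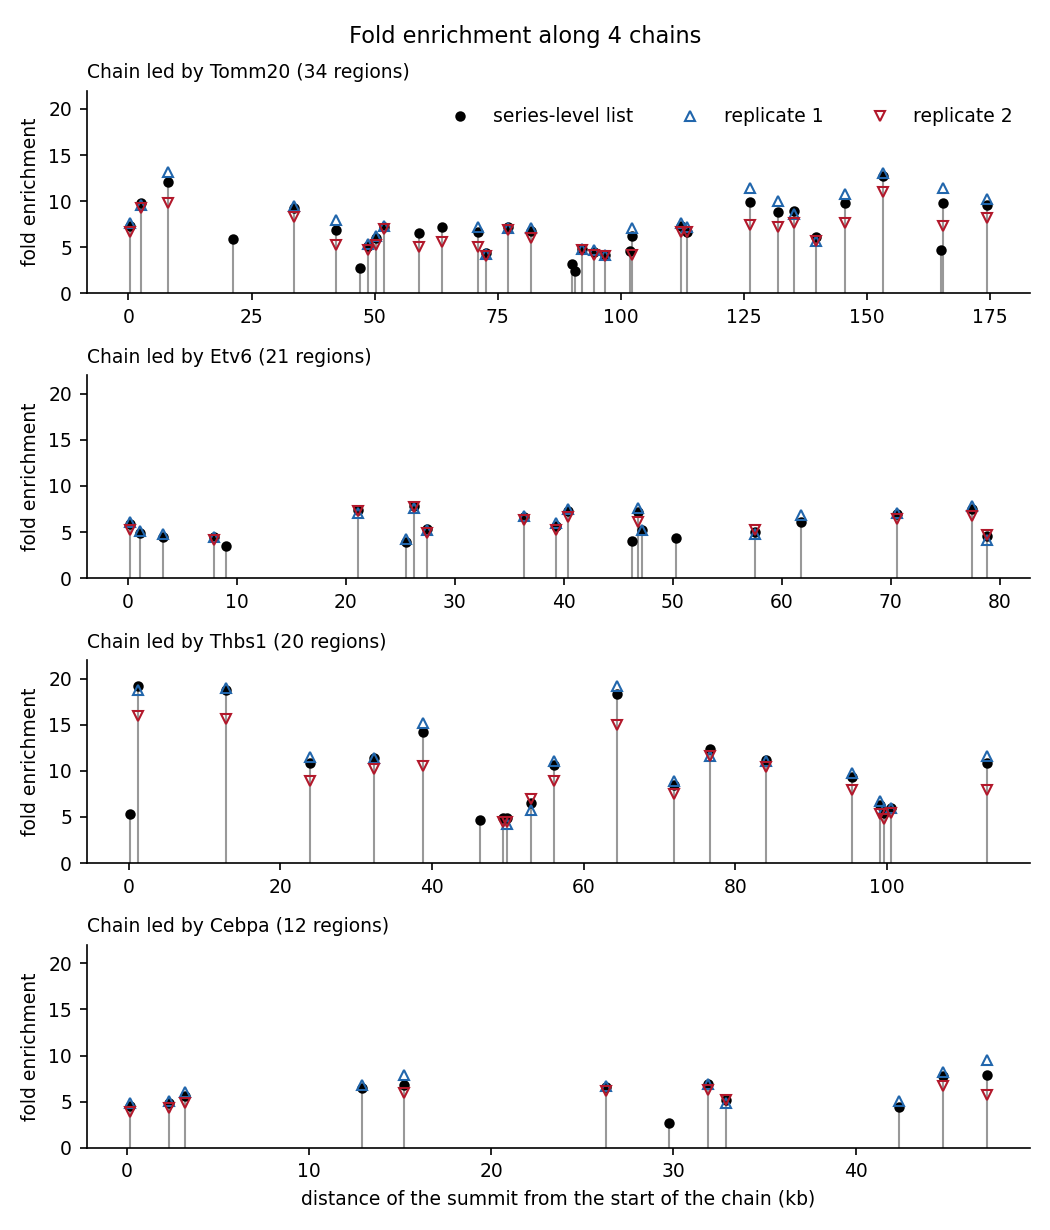
Fold enrichment of each region (vertical axis) against the distance of its summit from the start of the chain in kb (horizontal axis) for the chains led by Tomm20, Etv6, Thbs1 and Cebpa. Black circles on stems are the series-level list and open triangles the same regions in each replicate's list; the Thbs1 chain reaches 19.2, while the Etv6 and Cebpa chains stay under 10.

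Genes of the myeloid factors themselves held chains in 11 of 22 cases, although their chains were not among the largest. Over all 21853 protein-coding genes, 5.33% were nearest to a chain region and 3.41% led a chain. The 11 were Id2 (25 chain regions), Cebpb (19), Gfi1 and Irf8 (9 each), Klf4, Nr4a1 and Runx1 (8 each), Fos and Spi1 (7 each), Cebpa (6) and Batf3 (5). All 11 led at least 1 chain and had an open promoter. The lists were chosen with earlier results of these data known, and genes with more distal regions can more easily hold a chain: a gene of this list had 10 distal regions at the median. Of the 21853 genes, 745 led a chain and 12713 others were nearest to at least 1 distal region. The remaining genes could hold no chain region, and the 5.33% counts them too.

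The Cebpa chain joined the DNA between Cebpa, the factor needed to form GMP, and Slc7a10. It held 12 regions over 47.5 kb at chr7:35124799-35172308, with folds of 2.72 to 7.86, of which 11 were in replicate 1 (median 6.75) and 9 in replicate 2 (median 5.71). A summit 37.4 kb downstream of the 5′ end of Cebpa, where a myeloid enhancer of the gene is known in mice, had a fold of 6.90 (6.92 in replicate 1 and 6.30 in replicate 2), and 2 summits of the chain were stronger, at 50.3 and 52.7 kb. The known enhancer's nearest TSS was that of Slc7a10, so the count of 6 for Cebpa leaves it out. The summit at 31.8 kb carried the chain's PU.1 match, and CEBP matches lay at 7.80 and 8.68 kb.

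The Irf8 chain lay downstream of Irf8, the factor of monocyte and dendritic cell fate. Its 9 regions, at chr8:120763296-120808052, lay 27.1 to 71.0 kb from the gene's 5′ end, with folds of 4.27 to 10.1, and 8 were in replicate 1 and 4 in replicate 2. The strongest, shown above with its CEBP match, lay at 56.6 kb, where an enhancer of Irf8 is known in mice, at 11.9 in replicate 1 and 7.96 in replicate 2. PU.1 matches lay at 3 of the weaker summits, at 27.1, 47.6 and 71.0 kb.

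The Spi1 chain had 8 regions over 32.6 kb, at chr2:91081077-91113702, and was weak. Folds ran from 2.63 to 5.37 at the 7 regions nearest to Spi1, and the strongest of the chain, at 7.62, was nearest to Mybpc3. Replicate 1 held 7 of the 8 (median 5.08) and replicate 2 held 5 (median 4.68). A PU.1 match, the letters its own product binds, lay at the summit 6.85 kb from the gene's annotated 5′ end.

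The Gfi1 chain was stronger. Gfi1, a repressor that favours the neutrophil fate, had 9 regions at chr5:107678415-107729747, 8 of them downstream of its 5′ end, at folds of 3.08 to 12.4. Of these, 8 were in replicate 1 (median 7.50) and 7 in replicate 2 (median 6.79). The strongest summit, 38.0 kb downstream, had 13.4 in replicate 1 and 9.93 in replicate 2.

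Chains of Id2, Klf4 and Runx1 lay far upstream of their genes. Id2, an inhibitor of E-protein factors, had a chain of 15 regions from -45.3 to -127 kb and another of 10 regions from -184 to -233 kb. In the nearer chain 13 of 15 regions were in replicate 1 and 12 in replicate 2, in the farther one 10 of 10 and 9 of 10. The Klf4 chain (Klf4 drives monocyte differentiation) held 8 regions from -266 to -292 kb, the last with a fold of 17.9 (17.9 in replicate 1 and 15.4 in replicate 2). That of Runx1 held 8 regions from -194 to -229.6 kb, with a highest fold of 13.3 (13.04 in replicate 1 and 10.1 in replicate 2), and the other 35 of its 43 distal regions were outside chains.

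The remaining myeloid factors with chains were Cebpb, Fos, Nr4a1 and Batf3. All 19 distal regions of Cebpb, a factor of emergency granulopoiesis, were chain regions, most of them in 2 chains of 8 regions, 1 on either side of an interval that starts 35.1 kb and ends 52.1 kb downstream of its 5′ end. The Fos chain (Fos is a subunit of AP-1) had 7 of its 8 summits nearest to Fos, all upstream, with AP-1 letters at a summit with a fold of 12.1 (12.3 in replicate 1 and 10.5 in replicate 2). The Nr4a1 chain of 9 regions flanked the promoter of Nr4a1, a receptor of patrolling monocytes, at folds of 3.91 to 10.35. The 10 regions of the Batf3 chain, a dendritic cell factor, were shared with Fam71a at 5 each.

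Stem and progenitor regulators held chain regions in 10 of 23 cases. They were Etv6 (30), Bcl11a (23), Fli1 (17), Erg (14), Ikzf1 (13), Lmo2 (11), Cbfa2t3 (10), Sox4 (8), Tal1 (6) and Hhex (3). Fli1 and Erg, ETS factors of stem cells and megakaryocytes, each had 1 chain within the gene, with median folds of 6.12 in replicate 1 and 5.46 in replicate 2 for Fli1, and of 5.78 in replicate 1 and 5.52 in replicate 2 for Erg. The chain of Tal1, a factor of blood stem and red cells, was stronger, with 9 of 10 regions in each replicate at medians of 8.57 in replicate 1 and 6.49 in replicate 2.

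Signalling genes held chain regions in 10 of 20 cases and cytokine receptors in 4 of 15, and 8 of the signalling genes and 4 of the receptors led a chain. The signalling genes included Dusp6 (24; a phosphatase of ERK), Syk (12), Elmo1 (11), Lyn and Socs3 (10 each), Jak2 (9), Stat5b (8), Jak1 (5) and Cish (3). Lyn is a Src family kinase of myeloid cells, and all 10 regions of its chain were in both replicates, with a median fold of 8.46 in the series-level list. The receptors were Csf1r (9; the M-CSF receptor), Tnfrsf1b and Ifngr2 (8 each) and Tnfrsf1a (6). Csf3r and Kit, which are GMP receptors, had no chain region.

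Monocyte genes held chain regions in 7 of 16 cases, late neutrophil genes in 4 of 16 and primary granule genes in 3 of 12, beside 5.33% of all protein-coding genes. Fewer of them led a chain: 6 monocyte, 2 late neutrophil and 1 primary granule gene, beside 3.41% of all protein-coding genes. The monocyte genes were Ly86 (24 in 2 chains; MD-1, a partner of a Toll-like receptor homologue), F13a1 (11), Csf1r and Cybb (9 each; Cybb is a subunit of the NADPH oxidase), Mrc1 and Nr4a1 (8 each) and Cd14 (4). S100a9, which with S100a8 forms calprotectin, led a chain of 16 regions over 95.0 kb across the S100a cluster at chr3:90615442-90710411, with 12 regions in replicate 1 and 12 in replicate 2 and a highest fold of 16.5 (15.8 in replicate 1 and 14.1 in replicate 2). Ltf held 5 regions of a chain led by Ccrl2, and Mmp9 held 4.

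Of the 12 primary granule genes, 9 had no chain region, among them Mpo (myeloperoxidase) and Ctsg (cathepsin G). Prtn3 (2 regions) and Elane (1), the proteinases of primary granules, sat in a chain of 11 regions led by Ptbp1 at chr10:79832092-79893070, with 8 regions in replicate 1 and 5 in replicate 2. Serpinb1a, the inhibitor of those proteinases, led its own chain of 8 regions over 21.7 kb, with 5 in replicate 1 and 6 in replicate 2.

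The other lists ran from 0 to 20% of genes with a chain region, beside 5.33% of all protein-coding genes. In lists of 12 to 17 genes a count of 0 is near that share. In lists this small 1 gene is enough to exceed it, so a list with any chain region had to lie above it. Such lists ran from 6.67% (B cell, 1 gene of 15) to 20% (housekeeping), while primary granule and late neutrophil genes had 25% each. Erythroid, T and NK cell, eosinophil, basophil and mast cell, hepatocyte, muscle and neural genes had none (0 of 14, 0 of 17, 0 of 12, 0 of 14, 0 of 13 and 0 of 15), though the list of replicate 1 alone gave 1 erythroid gene, Tfrc. B cell genes had 1 of 15, Blnk with 3 regions in a chain led by Dntt, and megakaryocyte genes 2 of 14, Thbs1 (20) and Itgb3 (6). Dendritic cell genes had 2 of 12 (Irf8 and Batf3, which the myeloid list also holds), chromatin genes 2 of 14 (Dnmt3a with 12 and Tet2 with 8), and housekeeping genes 3 of 15 (among them Actb with 5 and Pgk1 with 2). The median number of distal regions per gene was 0.5 for erythroid, 1 for muscle and 2 for neural genes, and 12 for the stem and progenitor regulators.

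**Figure D4:**
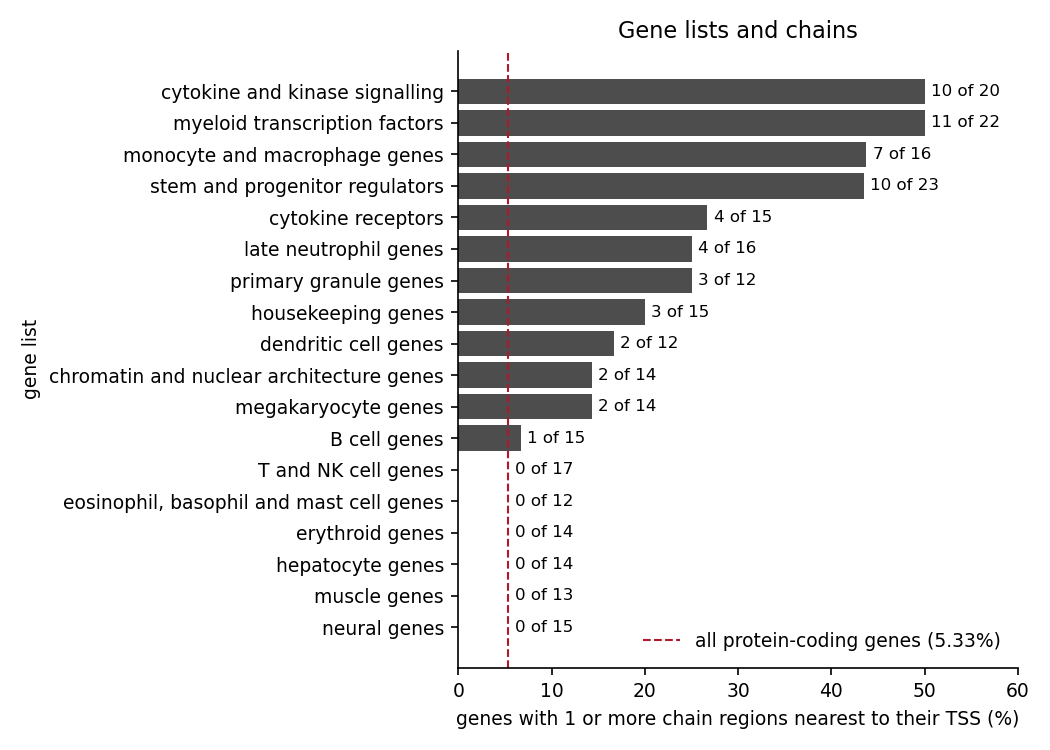
Share of the genes of each list with at least 1 chain region nearest to their TSS (horizontal axis, %), with the counts beside the bars. The dashed line is the 5.33% of all protein-coding genes; the signalling and myeloid factor lists reach 50% and 6 lists of other tissues and lineages are at 0.

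These counts depended on the replicate. With the rule applied to the list of replicate 1 alone, 8 of 22 myeloid factors, 8 of 23 stem and progenitor regulators, 7 of 20 signalling genes and 3 of 16 monocyte genes held a chain region, against 3.02% of all genes. With the list of replicate 2 alone the counts were 2 (Cebpa and Id2), 4 (Etv6, Fli1, Hhex and Tal1), 5 (among them Dusp6, Elmo1, Lyn and Socs3) and 0, against 1.53% of all genes. Neither list alone gave a chain region to the primary granule or late neutrophil genes, while housekeeping genes had 3 of 15 in replicate 1 and 2 of 15 in replicate 2.

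Outside the lists, several genes led more than 1 chain. Of 745 distinct lead genes, 40 led at least 2. Zfp608 (a zinc finger protein) and Pde4d (a cAMP phosphodiesterase) led 3 chains each, with 30 and 27 chain regions. Cxcr4, the receptor that holds progenitors in bone marrow, led 2 chains with 19 chain regions, and so did Cd44, an adhesion receptor, with 19. The promoters of lead genes were open for 646 of 745 (86.7%), against 9085 of 12713 (71.5%) for genes with distal regions that led no chain.

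Regions in chains were weaker one by one than other distal regions. Their median fold was 6.71 (quartiles 5.11 and 8.87), against 8.09 (6.21 and 10.7) for other distal regions, and 1.54% exceeded a fold of 15, against 4.99%. The median was lower in larger groups: 9.10 for single regions, 8.09 for groups of 2 to 3, 7.28 for groups of 4 to 7, 6.86 for chains of 8 to 9, 6.68 for chains of 10 to 14 and 6.42 for chains of 15 or more. It was lower in chains in each replicate's own list as well, at 7.49 against 9.08 in replicate 1 and 6.37 against 7.64 in replicate 2, where the rule was applied to that list.

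Pooled over all chains, the first and last regions had a higher median fold than the regions between them. The medians were 7.64 (n = 1574) for the first and last regions and 6.52 (n = 6656) for those between. The values overlapped, with a lower quartile of 5.83 for the first and last regions and an upper quartile of 8.59 for those between. Outer and inner regions were not compared chain by chain. The strongest region of a chain stood at 1.78 times the chain's median fold at the median.

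In size and place chain regions were close to other distal regions. Their median width was 430 bp, against 431 bp for other distal regions, their median GC content 49.3%, against 48.0%, and their median ratio of observed to expected CpG 0.228, against 0.217. Introns held 53.3% of chain summits and 51.2% of other distal summits, exons 6.16% and 7.79%, and intergenic DNA 40.5% and 41.0%. The median distance to the nearest protein-coding TSS was 21.2 kb, against 21.6 kb. Repeat-masked bases lay at 9.79% of chain summits and 10.4% of others, and a long noncoding RNA TSS lay within 1 kb of 3.11% and 2.74%.

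Chains lay on the 19 autosomes and X but were not evenly spread. On X 7.10% of distal regions were in chains, on chromosome 16 9.07%, and on the other autosomes 12.2% to 17.4%, with the highest share on chromosome 18. X held 10 chains, among them that of Cybb.

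Chain regions were found in the replicates slightly more often than other distal regions, although the list that chose them was itself made from both replicates. The list of replicate 1 held 80.4% of chain regions and 79.3% of other distal regions, and that of replicate 2 held 69.0% and 64.9%. Both lists together held 65.1% of chain regions and 61.1% of others, against 61.7% over all distal regions, and 15.7% and 16.9% were in neither. In the authors' looser lists the order was the other way round, with 99.1% of chain regions and 99.3% of others in replicate 1 and 96.8% and 97.1% in replicate 2.

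At equal fold the gap between chain regions and others was narrower in the lowest decile than in those just above it, and closed toward the highest. The lowest decile held the most chain regions (1627). There 47.4% of chain regions and 39.3% of others were in the list of replicate 1, and 29.2% and 24.4% in that of replicate 2. In the second decile of fold over all distal regions, 70.4% of chain regions and 49.3% of others were in the list of replicate 1, and 53.2% and 31.3% in that of replicate 2. In the fifth decile the shares were 93.2% and 82.3% in replicate 1 and 81.6% and 58.1% in replicate 2. In the ninth decile they were 100% and 99.5% in replicate 1 and 99.1% and 96.9% in replicate 2. In the highest decile they were 99.7% and 99.96% in replicate 1, where chain regions were the lower, and 99.7% and 99.6% in replicate 2. Chain regions in both lists had a median fold of 7.87, against 5.03 for the rest of them.

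Fold values of the replicates followed each other across regions. For the 5360 chain regions in both lists the median fold was 8.18 in replicate 1 and 6.83 in replicate 2, and Spearman's rho across regions was 0.906, a description of values that share a series-level call. For 31373 other distal regions it was 0.866.

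Whole chains were rarely complete in both replicates. Every region was in both lists in 13 of 787 chains, in the list of replicate 1 in 113 and in that of replicate 2 in 27. Replicate 1 held more regions than replicate 2 in 527 chains, fewer in 78 and as many in 182. With the rule applied to each list alone, replicate 1 gave 426 chains with 4205 regions and replicate 2 gave 227 with 2161. These overlapped 390 of the 787 series-level chains in replicate 1 and 221 in replicate 2, and 25 and 20 of the 25 with the most regions.

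The 3 chains with the highest median folds had 8 or 9 regions each. The chain of Cited2 (a CBP/p300-binding coregulator), with 8 regions in 50.4 kb, had the highest median fold, 12.1 (12.9 in replicate 1 and 10.1 in replicate 2), followed by those of Sgms1 at 11.6 and Atp6v1g3 at 11.5. The Atp6v1g3 chain also held the strongest chain region, at 22.3. The lowest share in replicate 1 was 4 of 11 regions in the Gm11361 chain, and the lowest in replicate 2 was 2 of 8, in the chains of Gadd45g, Ext1, Ankrd44, Cpvl and 1700001O22Rik, where replicate 1 held 4 to 6. After the Tomm20 and Klf14 chains, that of Mreg had the longest span, 125.7 kb.

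Sequence at chain summits carried the motifs of myeloid factors about as often as at other distal summits. Within 50 bp of the summit, PU.1 letters were found at 8.51% of chain summits and 8.76% of others, a log2 ratio of -0.04 ± 0.42 (SD over 20 chromosomes), and CEBP letters at 10.1% and 10.6%, a log2 ratio of -0.07 ± 0.25. Both were more frequent at chain summits than in windows 500 bp to the side, by 3.82 on the log2 scale for PU.1 and 1.33 for CEBP. Other distal summits showed the same, by 3.82 for PU.1 and 1.40 for CEBP. E-box letters stood at 8.24% of chain summits and 7.94% of others, MYB letters at 6.90% and 6.34%, and IRF letters (GAAANNGAA) at 4.16% and 4.14%. Chromosomes are not samples, so their SD describes how single chromosomes differ, and no test was made.

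CTCF and RUNX letters were rarer in chains, and AP-1 letters slightly more frequent. CTCF, the protein that anchors chromatin loops (AGNGGGCGC), had a match at 1.75% of chain summits and 2.65% of other distal summits, a log2 ratio of -0.60 ± 0.51, above 0 on 1 of 19 chromosomes with a ratio. Its share was 3.27% of single regions, 2.73% in groups of 2 to 3, 2.00% in groups of 4 to 7 and 1.54% in chains of 15 or more. RUNX letters (TGTGGTTT) stood at 2.52% and 3.26%, a ratio of -0.37 ± 0.59, above 0 on 4 of 20 chromosomes, and ETS-IRF composites at 3.18% and 3.83% (-0.27 ± 0.32, 3 of 20). Unlike that of CTCF, the RUNX share did not fall steadily with size. It was 3.125% of single regions, 3.27% in groups of 2 to 3 and 3.37% in groups of 4 to 7. In chains of 8 to 9, 10 to 14 and 15 or more it was 2.27%, 2.68% and 2.70%.

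AP-1 (TGANTCA), bound by Fos and Jun proteins, had a match at 7.24% of chain summits and 6.35% of others, a ratio of 0.19 ± 0.20, above 0 on 16 of 20 chromosomes. By chain size the AP-1 share was 7.75% in chains of 8 to 9, 7.22% in chains of 10 to 14 and 5.94% in chains of 15 or more, so the largest chains lay below other distal regions. Chain regions had lower folds, so the comparison was repeated with other distal regions weighted to the same deciles of fold. The ratios were then 0.23 for AP-1, -0.58 for CTCF, -0.32 for RUNX and 0.04 for PU.1. GATA letters (AGATAAG) were at 1.25% of chain summits and 1.24% of others.

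**Figure D5:**
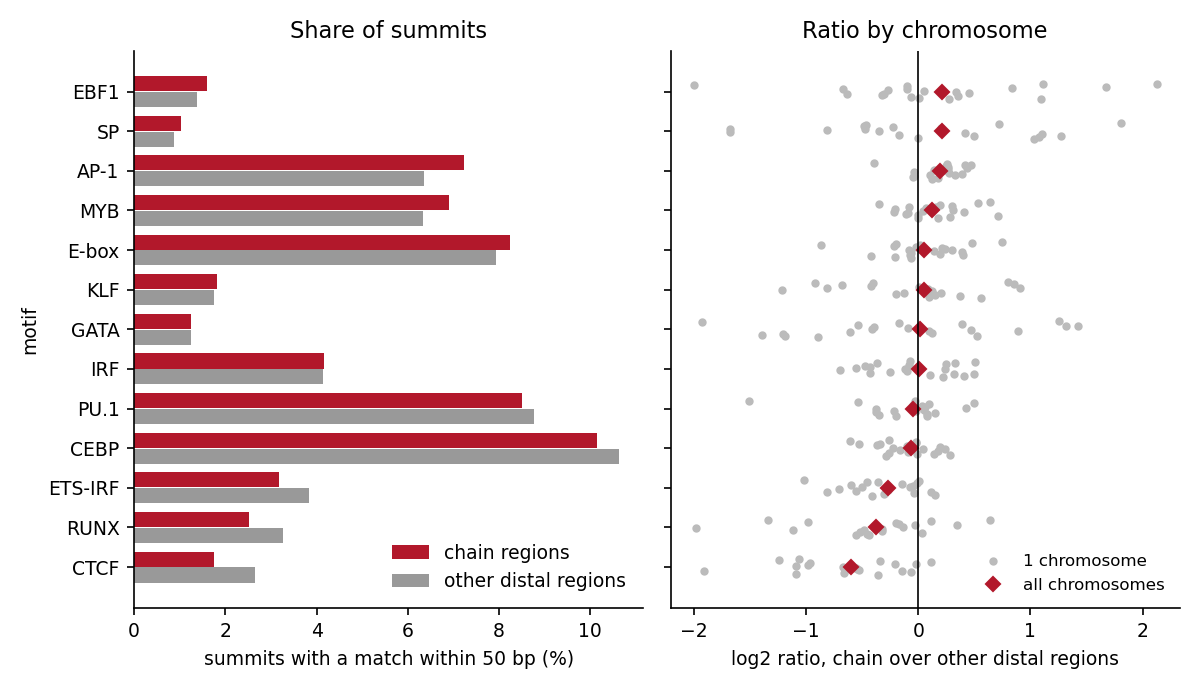
Left, share of chain summits (red) and other distal summits (grey) with a match within 50 bp, for the 13 motifs with at least 80 chain summits matched. Right, log2 ratio of chain over other distal summits, with red diamonds over all chromosomes and grey points for single chromosomes; CTCF lies lowest at -0.60.

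Few summits held letters of more than 1 of the 3 main myeloid factors, and chains differed in how many they held across all their summits. Letters of at least 1 of PU.1, CEBP and RUNX stood at 20.5% of chain summits and 21.5% of other distal summits, and letters of at least 2 of them at 0.632% and 1.13%. Somewhere among their summits, 71 of the 787 chains had all 3 (9.02%), 308 had 2 (39.1%), 315 had 1 (40.0%) and 93 had none (11.8%). CEBP letters occurred in 508 chains (64.5%), PU.1 in 450 (57.2%), AP-1 in 417, RUNX in 186 and CTCF in 129. These chain counts grow with the number of summits in a chain and have no counterpart among other distal regions.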

How the data were processed

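The deposited files were lists of accessible regions in mm10, per the submitters' file list. Each row carried a fold enrichment (a ratio) and, per the deposited file format, the offset of its summit. Neither labels nor files name the aligner, the peak caller or any Tn5 shift (not given in the sources used here). Regions came from the series-level conservative list, which passed a threshold on the irreproducible discovery rate (IDR) between replicates, and values per replicate came from each replicate's own IDR-thresholded list.

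Rows sharing 1 bp or more were merged, keeping the summit and fold of the row with the highest fold. Summits were assigned to the nearest TSS of a protein-coding transcript in GENCODE vM21, and gaps were taken between region edges. A region was present in a replicate where it overlapped 1 bp or more of a region of that list. Consensus motifs were searched on both strands within 50 bp of each summit: those spelled out in the results, and ETS ACCGGAAGT, KLF CCACACCC, SP GGGGCGGGG, NFIL3-HLF TTACGTAA, STAT TTCCNGGAA, TCF-LEF CTTTGATC and NF-kB GGGANTTCC. Matches of different motifs may overlap.

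The 25 chains with the most regions were named, and every gene of the 18 lists that led a chain or held at least 3 chain regions; genes with fewer were named where a count was small. Some genes of these lists are counted but not reported here by name. The members and the lists were chosen with earlier results of these data known. No test was made, since there is 1 group. Python 3.11.15, pandas 2.3.3, numpy 2.4.6 and matplotlib 3.10.9 were used, and the scripts were tested on simulated data. Alternatives in the gap, the minimum size, the list, the TSS set, the merging and the motif window were tried.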

Additional observations from a re-analysis of the deposited data

How the results depend on the processing

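The number of chains was set by the rule and the list. A gap of 5 kb left 33 chains with 294 regions (0.493% of distal regions), and 25 kb gave 1854 with 24489 (41.1%). A minimum of 5 regions gave 2562 chains with 18313 regions (30.7%), and of 12 gave 185 with 2765 (4.64%). The looser replicated list gave 2854 chains with 36142 regions (34.6%), which overlapped 786 of the 787, and rows at or above the median fold gave 60 with 513 (1.31%). Without 1 replicate there were 227 to 426 chains with 2161 to 4205 regions (5.40% to 8.31%). The share in chains was 12.7% in the other IDR-thresholded list, 15.1% and 11.4% with distal limits of 500 and 2500 bp, 11.2% with the TSS of every gene type and 13.05% with rows merged across 100 bp. It was 12.8% with the TSS of every transcript and 12.5% with gaps between summits, both chosen after seeing the data. The cause of these shifts was not tested beyond the number of regions each setting keeps.

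With at least 0.5 of a region covered, replicate 2 held 67.9% of chain regions, and the looser lists held 99.1% in replicate 1 and 96.8% in replicate 2. The RUNX ratio was -0.32 within 25 bp, -0.21 within 100 bp and -0.29 to -0.21 without 1 replicate. That of AP-1 was 0.27 within 25 bp, 0.23 with weighting by fold and 0.18 to 0.19 without 1 replicate. That of CTCF was -0.49 within 100 bp and -0.56 to -0.44 without 1 replicate, and that of CEBP -0.053 to 0.069 without 1 replicate, on either side of 0. The signs of the RUNX, AP-1 and CTCF ratios held within 25 and 100 bp, with weighting by fold and without 1 replicate. Motif ratios were not run under the other gaps, minimum sizes, series-level lists, distal limits, TSS sets or merging.

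Without 1 replicate, an alternative chosen after seeing the data, the number of genes with a chain region was 334 to 659 of all genes, 2 to 8 myeloid factors, 4 to 8 stem and progenitor regulators, 2 to 3 receptors, 5 to 7 signalling genes, 0 to 3 monocyte, 0 to 1 erythroid and 0 to 1 dendritic cell genes, and 0 to 0 primary granule, late neutrophil, B cell and chromatin genes. With summits inside a gene given to that gene, dendritic cell genes had 1. Other settings of the main results stayed within 1.5 times, or within the replicate spread or counting interval, of the value given (71 results), while 64 results moved outside these limits. Some of the 71 are gene lists with 0 genes in both settings, which count as unchanged. No paired analysis was possible because there is only 1 group. Depth is unknown, so weak regions missing from a list cannot be told apart from closed ones.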
